A study of Mus musculus with 6 samples.

Results

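The 38 genes described here encode proteins of the contractile apparatus of striated muscle other than the myosins. They are the troponins, the tropomyosins and actin of the thin filament, titin with the myosin-binding and M-band proteins, the structural and LIM-domain proteins of the Z-disc, the proteins that tie myofibrils to the cell membrane, and a pair of chaperones of myosin. They were chosen by name: every probe set that the platform annotation assigned to 1 of these symbols alone was taken, which gave 82 of the 45101 probe sets on the array. After a filter on dim probe sets, 37 of the 38 genes were among the 13634 genes tested. The gene left out was Tnnt3, the fast skeletal troponin T, whose log2 signals were 3.28, 3.26 and 3.30 in DNMTs-Tg hearts and 3.18, 3.48 and 3.10 in wild-type hearts.

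Gene expression was measured in whole hearts of 3 DNMTs-Tg mice (replicates 1, 5 and 6) and 3 wild-type mice (replicates 1, 4 and 6), all 8 weeks old, with 1 Affymetrix array per mouse. DNMTs-Tg mice carry transgenes for DNMT3A2 and DNMT3L that are active in a broad range of somatic cells. DNMT3A2 is a shorter isoform of DNMT3A, an enzyme that places methyl groups on unmethylated DNA, and DNMT3L has no catalytic activity but stimulates that enzyme. Per the labels, they came from FVB-Tg(Ddx4-cre)1Dcas/J females, in which a germ-cell promoter drives Cre, mated with males labelled flox, and they grew slowly after birth and died early. The labels give neither the strain of the wild-type mice nor the promoter of the transgenes, and the study looked for genes silenced by the added methyltransferases. DNA methylation was not analysed here.

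A sarcomere is the repeating contractile unit of heart and skeletal muscle. Thin filaments of actin, tropomyosin and troponin are anchored in the Z-disc, thick filaments of myosin are cross-linked at the M-band, and titin spans from Z-disc to M-band. Many sarcomere proteins have a cardiac and a skeletal gene, and the heart shifts between these forms in development and under load. The Z-disc also carries LIM-domain proteins that bind signalling molecules, and desmin and vinculin link it to neighbouring myofibrils and to the cell membrane.

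The arrays separated by genotype, while sex-linked RNA went against the labelled sex of wild-type replicate 1 and of every DNMTs-Tg mouse. The transgene-derived gene Dnmt3l had log2 signals of 12.19 to 12.38 on the DNMTs-Tg arrays and 5.17 to 5.48 on the wild-type arrays, where 1 unit is a 2-fold difference. Wild-type replicate 6 is labelled male and the other 5 mice female, but Xist RNA was high (10.1) and Y-linked Eif2s3y RNA low (3.32) on the array of wild-type replicate 4 alone, and Eif2s3y lay at 9.41 to 9.52 on the other 5 arrays. Principal component 1, with 64.0% of the variance, gave scores of 53.0, 21.1 and 4.34 for DNMTs-Tg replicates 1, 5 and 6 and of -27.8 to -24.6 for the wild-type arrays. DNMTs-Tg replicate 6 thus lay nearest to the wild-type arrays and DNMTs-Tg replicate 1 farthest from them. RNA integrity was read from the 3' minus 5' difference of the Gapdh control probe sets, which was 0.66 ± 0.12 in DNMTs-Tg and 0.43 ± 0.06 in wild-type arrays (log2, SD, n = 3 each; 2-sided exact permutation test, p = 0.1, the smallest that 3 against 3 arrays can give). For the Actb control probe sets the same difference was 1.12 ± 0.25 in DNMTs-Tg and 1.15 ± 0.09 in wild-type arrays (exact permutation p = 0.8).

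Of the 37 sarcomere genes tested, 4 changed in DNMTs-Tg hearts at an adjusted p under 0.05 (limma with Benjamini-Hochberg adjustment over all genes tested, used for every adjusted p of a gene below). Pdlim3 and Smyd1 rose, and Nebl and Fhl2 fell. Over all genes tested, 5.39% passed the same threshold, 2.24% as rises and 3.15% as falls, and 4 of 37 is too small a count beside that rate to be read as a property of the set. The log2 changes of the 37 genes ran between -0.86 and 2.12, with a median of 0.15, against a median of 0.006 over all genes tested. The groups did not overlap for 24 of the 37 genes, 17 of them higher and 7 lower in DNMTs-Tg hearts. Over all genes tested 34.9% had groups that did not overlap, 17.3% higher and 17.6% lower. At an unadjusted p under 0.05 there were 13 higher and 6 lower genes among the 37, 19 in all, and 26.0% of all genes tested were so (12.9% higher and 13.1% lower). Only Pdlim3, Synpo2l and Mybpc2 differed by at least 2-fold. In whole-heart RNA, fewer cells of a type and less RNA per cell cannot be told apart.

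**Figure D1:**
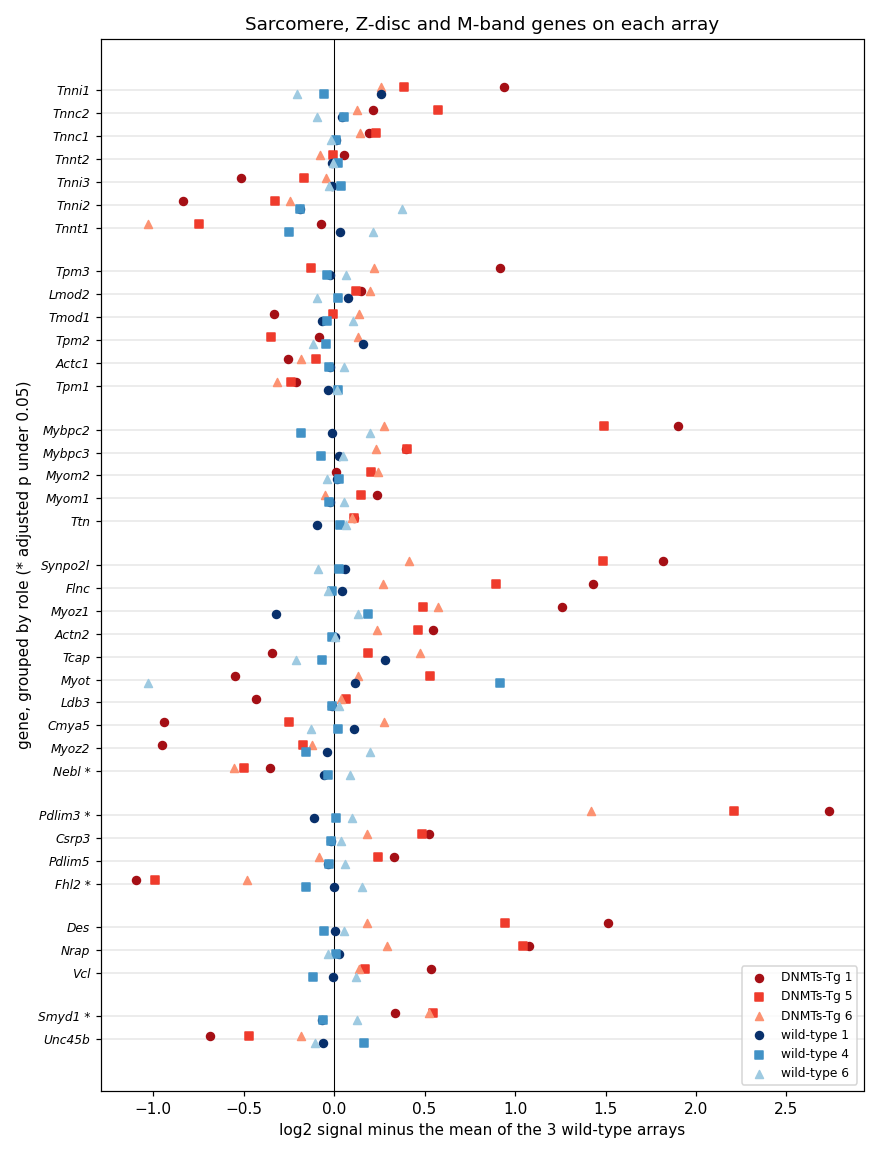
Log2 signal of each of the 37 measured genes on every array, minus the mean of the 3 wild-type arrays (horizontal axis), with the genes grouped by role down the page. Red symbols are the 3 DNMTs-Tg arrays, blue symbols the 3 wild-type arrays, and an asterisk marks an adjusted p under 0.05. The wild-type arrays lie close together for most genes, while DNMTs-Tg replicate 1 lies far to the right for Pdlim3, Mybpc2, Synpo2l, Des and Flnc and far to the left for Fhl2, Cmya5 and Myoz2.

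The troponin complex makes contraction sensitive to calcium. None of the 7 measured troponin genes passed the threshold, with 3 at an unadjusted p under 0.05. Troponin T binds tropomyosin, and its cardiac gene Tnnt2 had log2 signals of 14.56, 14.50 and 14.43 in DNMTs-Tg hearts and 14.49, 14.53 and 14.50 in wild-type hearts, a change of -0.01 ± 0.07 (SE). The slow skeletal gene Tnnt1 had 8.15, 7.48 and 7.19 in DNMTs-Tg hearts and 8.26, 7.97 and 8.44 in wild-type hearts. The Tnnt1 groups overlapped through DNMTs-Tg replicate 1, and the change was -0.62 ± 0.25 (adjusted p = 0.181). Without that array it was -0.89 ± 0.17 and passed the threshold (adjusted p = 0.0274).

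Troponin I is the inhibitory subunit. Tnni3, its adult cardiac gene, had log2 signals of 13.77, 14.12 and 14.24 in DNMTs-Tg hearts and 14.27, 14.32 and 14.26 in wild-type hearts. Tnni1, the slow skeletal gene that the fetal heart also uses, had 6.05, 5.50 and 5.37 in DNMTs-Tg hearts and 5.37, 5.06 and 4.91 in wild-type hearts. Both pairs of groups were separated by narrow gaps, Tnni3 toward lower values in DNMTs-Tg hearts (-0.24 ± 0.12, adjusted p = 0.258) and Tnni1 toward higher ones (0.53 ± 0.21, adjusted p = 0.170). For Tnni1 the groups nearly touched, at 5.374 on DNMTs-Tg replicate 6 and 5.372 on wild-type replicate 1. Tnni1 was dim (mean 5.38), and so was Tnni2, the fast skeletal gene (mean 5.59). Tnni2 had 4.99, 5.49 and 5.57 in DNMTs-Tg hearts and 5.63, 5.63 and 6.19 in wild-type hearts (-0.47 ± 0.22, adjusted p = 0.224). Troponin C binds the calcium. Its cardiac and slow skeletal gene Tnnc1 had 14.36, 14.39 and 14.31 in DNMTs-Tg hearts and 14.17, 14.17 and 14.15 in wild-type hearts, a small but separated difference of 0.19 ± 0.07 (adjusted p = 0.135). The fast skeletal gene Tnnc2, also dim, had 5.23, 5.59 and 5.14 in DNMTs-Tg hearts and 5.06, 5.07 and 4.92 in wild-type hearts (0.30 ± 0.14, adjusted p = 0.227).

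The thin filament itself consists of actin with tropomyosin wound along it. None of these 6 genes passed the threshold, with 2 at an unadjusted p under 0.05, both lower in DNMTs-Tg hearts. Tpm1, the main tropomyosin gene of the heart, had log2 signals of 14.20, 14.18 and 14.10 in DNMTs-Tg hearts and 14.38, 14.43 and 14.43 in wild-type hearts. Every DNMTs-Tg array lay below every wild-type array, by an average of 0.26 ± 0.07 (adjusted p = 0.0788). Without DNMTs-Tg replicate 1 the Tpm1 difference was -0.28 ± 0.05 and passed the threshold (adjusted p = 0.0235). These values are from the brightest of 4 kept Tpm1 probe sets. The 4 had changes of -0.35 to 0.11, and averaging them gave a Tpm1 difference of -0.11 with all arrays (adjusted p = 0.673). Actc1, cardiac alpha-actin, had 14.36, 14.52 and 14.43 in DNMTs-Tg hearts and 14.59, 14.59 and 14.67 in wild-type hearts (-0.18 ± 0.07, adjusted p = 0.180).

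Tpm2, the beta-tropomyosin gene, differed by -0.10 ± 0.15 and Tpm3, a slow skeletal and non-muscle tropomyosin gene, by 0.34 ± 0.25, both with overlapping groups. DNMTs-Tg replicate 1 set the Tpm3 mean, at 10.81 against 9.76 and 10.11 on the other DNMTs-Tg arrays and 9.85 to 9.96 on the wild-type arrays. The proteins at the slow-growing end of the thin filament differed little. Tmod1, which caps that end, differed by -0.07 ± 0.13, and Lmod2, which lengthens the filament there, by 0.16 ± 0.08 (adjusted p = 0.274).

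Titin, the thick filament and the M-band were represented by 5 genes, all with a change above 0 and none past the threshold, with 2 at an unadjusted p under 0.05. Over all genes tested 50.8% had a change above 0. Ttn, the giant elastic protein that sets passive tension, differed by 0.11 ± 0.07 (adjusted p = 0.407). Mybpc3, the cardiac myosin-binding protein C that tunes cross-bridge cycling, had log2 signals of 13.92, 13.92 and 13.75 in DNMTs-Tg hearts and 13.55, 13.45 and 13.57 in wild-type hearts. Its groups were separated, with a difference of 0.34 ± 0.08 (adjusted p = 0.0606). Mybpc2, the fast skeletal form, had 9.99, 9.58 and 8.36 in DNMTs-Tg hearts and 8.08, 7.90 and 8.28 in wild-type hearts. DNMTs-Tg replicates 1 and 5 were far above the wild-type arrays and replicate 6 just above them, giving a 2.34-fold difference (1.22 ± 0.39, adjusted p = 0.111). The M-band cross-linkers myomesin 1 and 2, Myom1 and Myom2, differed by 0.11 ± 0.10 and 0.15 ± 0.09, with overlapping groups.

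The structural proteins of the Z-disc form the lattice in which thin filaments end. Of the 10 genes, 1 fell and none rose, with 4 higher and 1 lower at an unadjusted p under 0.05. Nebl encodes nebulette, a cardiac relative of nebulin that runs from the Z-disc along the thin filament. It had log2 signals of 11.82, 11.68 and 11.62 in DNMTs-Tg hearts and 12.12, 12.14 and 12.26 in wild-type hearts. All 3 DNMTs-Tg arrays lay below all wild-type arrays with a similar spread in both groups, and Nebl fell by 0.47 ± 0.09, or 1.38-fold (adjusted p = 0.0363). This call rested on the brightest of 3 kept probe sets. The other two differed by 0.15 ± 0.27 and -0.25 ± 0.22, and averaging the 3 gave a Nebl difference of -0.19 (adjusted p = 0.562). The call was lost without DNMTs-Tg replicate 5 (adjusted p = 0.122) or without wild-type replicate 1, 4 or 6 (adjusted p = 0.136, 0.138 and 0.146), with differences of -0.53 to -0.43 over all 6 such fits.

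Actn2, the alpha-actinin that cross-links actin at the Z-disc, had log2 signals of 13.55, 13.47 and 13.24 in DNMTs-Tg hearts and 13.01, 13.00 and 13.01 in wild-type hearts. The groups were clearly separated, and the difference of 0.41 ± 0.10 narrowly missed the threshold (adjusted p = 0.0568). With dim probe sets filtered at the 60th percentile, where 6.79% of all genes and 6 of 33 sarcomere genes passed, Actn2 and Mybpc3 were called as well (adjusted p = 0.0495 each). Synpo2l, an actin-binding Z-disc protein related to synaptopodin, had 13.31, 12.98 and 11.90 in DNMTs-Tg hearts and 11.55, 11.52 and 11.40 in wild-type hearts. Flnc, the muscle filamin that cross-links actin at Z-discs and membranes, had 11.92, 11.39 and 10.76 in DNMTs-Tg hearts and 10.54, 10.48 and 10.46 in wild-type hearts. In both genes the wild-type arrays were tight, and the DNMTs-Tg arrays descended in the order 1, 5 and 6 with the last close to wild-type. The differences were 1.24 ± 0.33 for Synpo2l (2.36-fold, adjusted p = 0.0752) and 0.86 ± 0.26 for Flnc (1.82-fold, adjusted p = 0.103). Myoz1, the calsarcin of fast skeletal muscle, was dim but separated, with 6.54, 5.78 and 5.86 in DNMTs-Tg hearts and 4.96, 5.47 and 5.42 in wild-type hearts (0.78 ± 0.24, adjusted p = 0.104).

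The remaining Z-disc genes had overlapping groups. Myoz2, the cardiac calsarcin that binds calcineurin, had log2 signals of 12.56, 13.34 and 13.39 in DNMTs-Tg hearts and 13.47, 13.36 and 13.71 in wild-type hearts (-0.41 ± 0.23, adjusted p = 0.287). Cmya5, a Z-disc and costamere protein also called myospryn, had 11.37, 12.06 and 12.58 in DNMTs-Tg hearts and 12.41, 12.33 and 12.18 in wild-type hearts (-0.31 ± 0.28). For both, DNMTs-Tg replicate 1 was the lowest array, and replicate 6 lay among the wild-type values for Myoz2 and above them for Cmya5. Tcap, which caps titin at the Z-disc, differed by 0.11 ± 0.22, and Myot, an actin-bundling protein, by 0.04 ± 0.49 with a wild-type range of 9.02 to 10.97.

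Ldb3, the PDZ and LIM protein ZASP that binds alpha-actinin, gave different answers by probe set. Its brightest probe set had log2 signals of 12.12, 12.61 and 12.59 in DNMTs-Tg hearts and 12.54, 12.54 and 12.57 in wild-type hearts (-0.11 ± 0.14, adjusted p = 0.656). Another had 11.26, 11.59 and 11.23 in DNMTs-Tg hearts and 10.62, 10.60 and 10.65 in wild-type hearts. In a fit of every probe set with no filter, where 2.11% passed the threshold (0.799% as rises and 1.31% as falls), that probe set rose by 0.74 ± 0.12 (adjusted p = 0.0255). A further Ldb3 probe set differed by 0.49 ± 0.11 (adjusted p = 0.0702 in that fit). Which transcript forms of Ldb3 each probe set reads is not given in the sources used here.

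The LIM proteins of the Z-disc held the largest rise and the largest fall of the 37 genes. Pdlim3 encodes ALP, a PDZ and LIM protein that binds alpha-actinin and is most abundant in skeletal muscle. Its log2 signals were 10.39, 9.87 and 9.08 in DNMTs-Tg hearts and 7.55, 7.67 and 7.76 in wild-type hearts. Even DNMTs-Tg replicate 6, the lowest of its group, stood well above every wild-type array. Pdlim3 averaged 9.78 ± 0.66 in DNMTs-Tg and 7.66 ± 0.10 in wild-type hearts (SD, n = 3 each) and rose 4.35-fold (2.12 ± 0.30, adjusted p = 0.0144). Leaving out 1 array gave rises of 1.82 to 2.47. The call was lost without DNMTs-Tg replicate 5 (adjusted p = 0.0714) or without wild-type replicate 1, 4 or 6 (adjusted p = 0.0755, 0.0627 and 0.0569).

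Fhl2 encodes a LIM-only protein that binds titin and acts as a transcriptional cofactor. Its log2 signals were 12.53, 12.63 and 13.14 in DNMTs-Tg hearts and 13.62, 13.47 and 13.77 in wild-type hearts. All DNMTs-Tg arrays were lower, and replicate 6 was again the nearest to wild-type. Fhl2 averaged 12.77 ± 0.33 in DNMTs-Tg and 13.62 ± 0.15 in wild-type hearts (SD, n = 3 each) and fell by 0.86 ± 0.17, or 1.81-fold (adjusted p = 0.0365). Without DNMTs-Tg replicate 5 the adjusted p was 0.128, and without wild-type replicate 1, 4 or 6 it was 0.143, 0.101 and 0.137. The difference without 1 array ran between -1.04 and -0.74.

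Csrp3, the muscle LIM protein implicated in stretch sensing, had log2 signals of 14.40, 14.36 and 14.06 in DNMTs-Tg hearts and 13.86, 13.86 and 13.91 in wild-type hearts. The groups did not overlap, and the means differed by 0.40 ± 0.10 (adjusted p = 0.0748). Pdlim5, which tethers protein kinase C to the Z-disc, had 7 probe sets. Its brightest differed by 0.16 ± 0.12 (adjusted p = 0.413), and the next by 0.05 ± 0.20. The other 5 had changes of 1.15 to 2.21, none past the threshold among all probe sets. One of these 5 had 12.18, 10.39 and 9.04 in DNMTs-Tg hearts and 8.97, 8.89 and 8.84 in wild-type hearts (1.64 ± 0.65, adjusted p = 0.221). DNMTs-Tg replicate 1 was far above all other arrays there, replicate 5 intermediate and replicate 6 close to wild-type.

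Because the transgenes encode subunits of a DNA methyltransferase, whose substrate is the CpG dinucleotide, the sequence before the start of Pdlim3 and of Fhl2 is shown, with each CpG in capitals. The windows are the 250 bases before an annotated transcript start, from RefSeq on build GRCm38.p6, written 5' to 3' on the gene's strand. The Pdlim3 window is chr8:45885237-45885486, plus strand, with 11 CpG dinucleotides, and lies just before the gene at chr8:45885487-45919635. Fhl2, at chr1:43123071-43198343 on the minus strand, has windows at a distal start (chr1:43196762-43197011, 1 CpG) and a proximal start (chr1:43163962-43164211, 21 CpG), both inside the annotated gene.
Pdlim3: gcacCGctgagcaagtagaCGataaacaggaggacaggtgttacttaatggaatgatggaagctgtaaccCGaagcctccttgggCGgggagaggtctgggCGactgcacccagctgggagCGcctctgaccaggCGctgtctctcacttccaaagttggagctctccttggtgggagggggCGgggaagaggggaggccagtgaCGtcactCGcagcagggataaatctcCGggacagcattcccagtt
Fhl2, distal: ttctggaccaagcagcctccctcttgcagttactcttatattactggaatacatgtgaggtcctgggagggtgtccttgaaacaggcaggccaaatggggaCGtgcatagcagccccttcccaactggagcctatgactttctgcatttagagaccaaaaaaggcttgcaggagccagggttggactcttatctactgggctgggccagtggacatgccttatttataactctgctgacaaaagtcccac
Fhl2, proximal: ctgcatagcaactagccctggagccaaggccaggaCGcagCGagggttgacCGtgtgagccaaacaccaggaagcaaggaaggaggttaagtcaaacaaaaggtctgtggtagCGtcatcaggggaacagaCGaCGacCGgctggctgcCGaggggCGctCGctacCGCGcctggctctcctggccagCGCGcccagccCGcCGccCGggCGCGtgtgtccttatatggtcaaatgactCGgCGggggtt
The 2 Fhl2 windows differ widely in CpG content, and the array does not tell which start its transcripts used. Of all 32851 windows in the table, 16.3% had at least as many CpG as the proximal Fhl2 window and 35.6% at least as many as that of Pdlim3. Among the other 2 genes that changed, Smyd1 had 2 CpG in its window, and Nebl had 0, 0, 3 and 25 CpG in 4 windows. The genes that rose thus had 11 and 2 CpG in 1 window each, and the windows of the genes that fell had between 0 and 25. Whether CpG content goes with direction was not tested in this set of 4 genes.

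The proteins that anchor the filaments at the cell's edge were 3 genes, all higher on every DNMTs-Tg array and none past the threshold, with 2 at an unadjusted p under 0.05. Des, the intermediate filament protein desmin that links Z-discs sideways, had log2 signals of 13.85, 13.28 and 12.51 in DNMTs-Tg hearts and 12.34, 12.28 and 12.39 in wild-type hearts. Nrap, an actin-binding LIM protein of the intercalated disc, had 12.22, 12.19 and 11.44 in DNMTs-Tg hearts and 11.17, 11.15 and 11.11 in wild-type hearts. DNMTs-Tg replicate 6 was the closest to wild-type in both. Des differed by 0.88 ± 0.30 (1.84-fold, adjusted p = 0.127) and Nrap by 0.80 ± 0.21 (1.75-fold, adjusted p = 0.0707). Vcl, the costamere protein vinculin, had 11.52, 11.15 and 11.12 in DNMTs-Tg hearts and 10.98, 10.87 and 11.11 in wild-type hearts, with groups that nearly touched (0.28 ± 0.13, adjusted p = 0.233).

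The chaperone pair lay on opposite sides of the wild-type level, and 1 of them passed the threshold. Smyd1, a muscle lysine methyltransferase that also assists myosin folding and thick filament assembly, had log2 signals of 11.37, 11.58 and 11.56 in DNMTs-Tg hearts and 10.97, 10.97 and 11.16 in wild-type hearts. The groups were separated with a similar spread, and Smyd1 rose 1.38-fold (0.47 ± 0.10, adjusted p = 0.0493). Its other 4 kept probe sets had changes of -0.31 to 0.17, and averaging all 5 gave a difference of 0.02 (adjusted p = 0.938). The Smyd1 call was held without DNMTs-Tg replicate 1 but lost without replicate 5 (adjusted p = 0.150), replicate 6 (0.0582) or wild-type replicate 1, 4 or 6 (0.190, 0.180 and 0.103). Unc45b, the myosin chaperone of striated muscle, had 10.84, 11.06 and 11.35 in DNMTs-Tg hearts and 11.47, 11.69 and 11.42 in wild-type hearts. It was lowest on DNMTs-Tg replicate 1, with a difference of -0.45 ± 0.15 (adjusted p = 0.121).

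**Figure D2:**
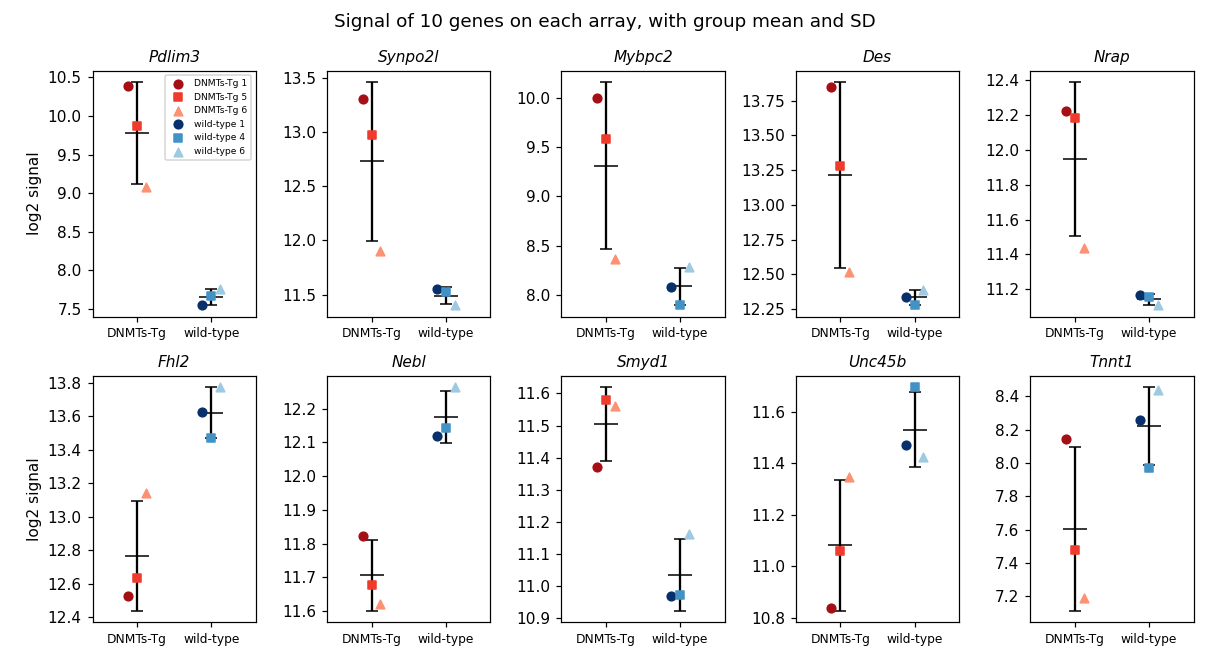
Log2 signal of 10 genes on each array (points, vertical axes that differ between panels and do not start at 0), DNMTs-Tg at left and wild-type at right in each panel, with the group mean and SD as bars (n = 3 each). Pdlim3, Synpo2l, Mybpc2, Des and Nrap share a descent over DNMTs-Tg replicates 1, 5 and 6, whereas Smyd1 and Nebl have a narrow DNMTs-Tg spread.

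Probe sets of 1 gene often differed. Of the 82 probe sets, 72 passed the filter, and 14 genes had more than 1 that passed. For 6 such genes every kept probe set was higher in DNMTs-Tg hearts, and for the other 8 the signs were mixed. Testing every probe set without the filter called 3 of the 82, as against 2.11% of all probe sets: the Pdlim3 probe set (adjusted p = 0.0141), the Ldb3 probe set above and the Fhl2 probe set (adjusted p = 0.0410). Nebl (adjusted p = 0.0544) and Smyd1 (adjusted p = 0.0725) missed the threshold in that fit. For Synpo2l, 3 probe sets differed by 1.23 to 1.88 and the dimmest by -0.24. For Ttn, the 5 kept probe sets differed by -0.04 to 0.21. The platform suffixes for probes shared between transcripts were carried by 31 of the 82, namely 16 with the suffix a, 5 with s and 10 with x, so signals of near relatives such as the tropomyosins may mix.

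**Figure D3:**
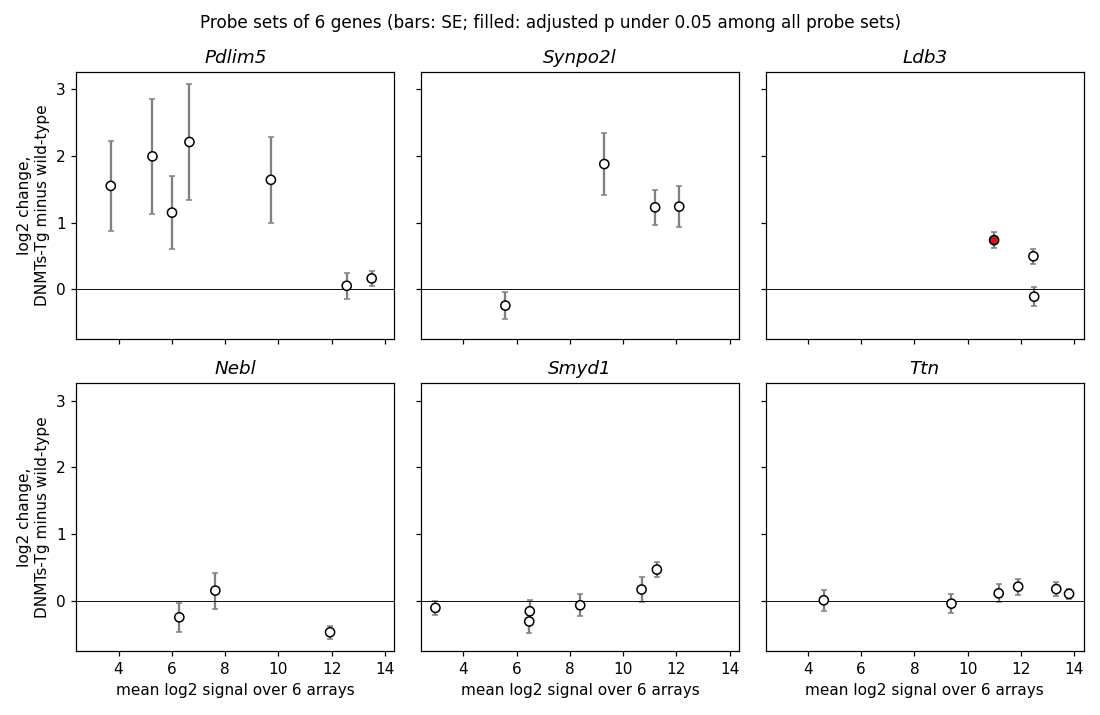
Log2 change, DNMTs-Tg minus wild-type (vertical axis), of every probe set of 6 genes against its mean log2 signal over the 6 arrays (horizontal axis), with the SE as bars. The filled point, an Ldb3 probe set at 0.74, is past the adjusted threshold among all probe sets. The dimmer Pdlim5 probe sets lie at 1.15 to 2.21 with wide errors while its 2 brightest lie near 0.

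Related forms of a protein were compared within each array in 8 pairs, not all of them a skeletal against a cardiac form. Myom1 and Myom2 were both bright in these hearts (mean log2 signals of 12.69 and 13.93), and Tpm3 is also a non-muscle gene. The difference Myoz1 minus Myoz2 was 1.19 higher in DNMTs-Tg hearts, Mybpc2 minus Mybpc3 0.88, Tnni1 minus Tnni3 0.77 and Tpm3 minus Tpm1 0.59. It was 0.15 for Tpm2 minus Tpm1, 0.11 for Tnnc2 minus Tnnc1, 0.04 for Myom2 minus Myom1 and -0.61 for Tnnt1 minus Tnnt2. The exact permutation test gave its smallest possible p of 0.1 for 3 of the pairs, Myoz1 minus Myoz2, Tnni1 minus Tnni3 and Tpm3 minus Tpm1, and adjusted over the 8 pairs the values ran between 0.267 and 0.800. The design could not reach a p under 0.05 in this test. Myoz1, Tnni1 and Tnnc2 were dim, with mean log2 signals of 5.67, 5.38 and 5.17, which limits what their pairs can show. A Myoz1 probe set that did not pass the filter differed by -0.05.

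The order of the arrays repeated from gene to gene. Of the 17 genes whose DNMTs-Tg arrays all lay above the wild-type arrays, DNMTs-Tg replicate 6 was the nearest to wild-type in 14 (82.4%) and replicate 1 the farthest in 12 (70.6%). The same held for 55.2% and 64.9% of the 2364 such genes among all genes tested. Of the 7 genes that were lower without overlap, replicate 6 was the nearest in 4 (57.1%) and replicate 1 the farthest in 5 (71.4%), and of the 2396 such genes among all genes tested in 1296 and 1438. Without DNMTs-Tg replicate 6, 12 genes of the 37 passed the threshold, beside 11.8% of all genes tested in that fit, namely Pdlim3, Fhl2 and Nebl and a further 9. Synpo2l then differed by 1.65 (adjusted p = 0.00230), Nrap by 1.06 (0.00264), Mybpc2 by 1.70 (0.00543), Des by 1.23 (0.0111), Csrp3 by 0.50 (0.0118) and Flnc by 1.16 (0.0124). Actn2 (0.50, adjusted p = 0.0147), Mybpc3 (0.40, adjusted p = 0.0291) and Unc45b (-0.58, adjusted p = 0.0375) passed as well. Without DNMTs-Tg replicate 1, 9 genes passed, beside 7.83% of all genes tested, namely the 4 called with all arrays and Tnnt1, Tpm1, Actn2 (0.35, adjusted p = 0.0423), Myom2 (0.22, adjusted p = 0.0423) and Mybpc3 (0.32, adjusted p = 0.0445). Without any other array no gene of the 37 passed in the limma fit, although 14 or 15 had an unadjusted p under 0.05. Of all genes tested 1.04% passed without DNMTs-Tg replicate 5, and 0.902%, 1.19% and 1.48% without wild-type replicates 1, 4 and 6.

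**Figure D4:**
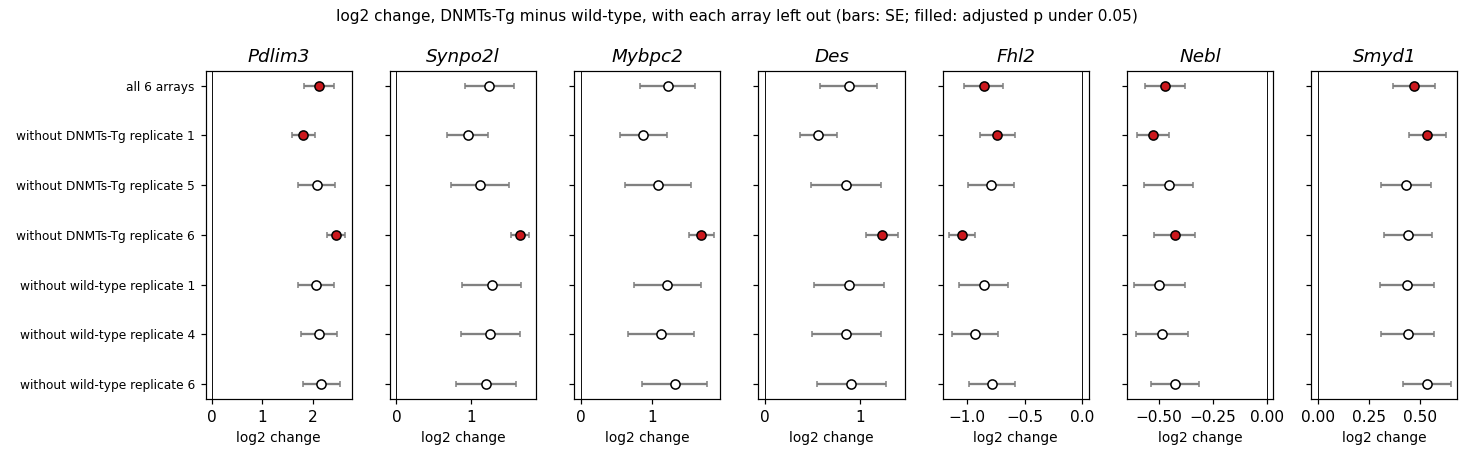
Log2 change, DNMTs-Tg minus wild-type, of 7 genes with all 6 arrays (top) and with each array left out in turn, with the SE as bars and filled points for an adjusted p under 0.05. Synpo2l, Mybpc2 and Des pass the threshold only without DNMTs-Tg replicate 6, where they lie at 1.65, 1.70 and 1.23. Every estimate of each gene stays on its own side of 0.

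Markers of other cells differed between the same arrays. Relative to the wild-type mean, the mean log2 signal of 12 measured macrophage markers of 13 was 1.53, 0.09 and 0.16 higher on DNMTs-Tg replicates 1, 5 and 6, and that of the 10 fibroblast markers 1.14, 0.21 and 0.13. The summed macrophage signal (log2 of the sum) was 11.81 to 13.21 in DNMTs-Tg and 11.85 to 12.21 in wild-type arrays, and the fibroblast sum was 14.67 to 15.63 in DNMTs-Tg and 14.39 to 14.76 in wild-type arrays. Neither list had a gene past the threshold, and both were high on DNMTs-Tg replicate 1, the array on which Pdlim3, Synpo2l, Mybpc2, Des and Flnc were highest. The markers closest to the threshold were Ccr2 (1.44, adjusted p = 0.0509) and Lgals3 (2.16, adjusted p = 0.0792) for macrophages and Col1a2 (1.01, adjusted p = 0.132) and Postn (1.84, adjusted p = 0.143) for fibroblasts. Of the 10 fibroblast markers 7 had a change above 0 and 3 below it. Those below were Dpt (-0.33, without overlap), Ddr2 (-0.22) and Tcf21 (-0.10). The part of these cells in the results above was not tested.

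Atrial and skeletal muscle markers were read on the same arrays. The 5 atrial markers averaged 1.89, 0.89 and 0.07 above the wild-type mean on DNMTs-Tg replicates 1, 5 and 6, and their sum was 10.45 to 13.41 in DNMTs-Tg and 9.66 to 12.14 in wild-type arrays. None was called. Sln, the atrial inhibitor of the calcium pump, had 11.25, 6.80 and 4.84 in DNMTs-Tg hearts and 3.94, 4.21 and 3.56 in wild-type hearts (3.72, adjusted p = 0.161), and Myl4, the atrial light chain, differed by 0.31 (adjusted p = 0.130). Nppa differed by 0.86, Myl7 by -0.07 and Bmp10 by -0.06, each with overlapping groups. Of 12 skeletal muscle markers 6 passed the filter, and Myh1, Myh4, Pvalb, Myod1, Myog and Pax7 did not. The sum of the measured 6 was 13.66 to 14.01 in DNMTs-Tg and 13.72 to 13.96 in wild-type arrays. That sum was mostly Ckm, which is also among the cardiomyocyte markers, at 13.47 to 13.82 in DNMTs-Tg and 13.64 to 13.81 in wild-type arrays. It therefore says little about skeletal muscle. Casq1 differed by 1.18 (adjusted p = 0.106) and Mylpf by -0.26 (adjusted p = 0.274). The fast skeletal myosin gene Myh2 was measured, at 5.40, 5.20 and 5.71 in DNMTs-Tg hearts and 5.34, 5.45 and 5.58 in wild-type hearts, with overlapping groups. The part of other muscle in the results above was not tested.

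The cardiomyocyte markers, 9 of 10 measured, marked the tissue as heart muscle on every array. Their sum was 17.08 to 17.35 in DNMTs-Tg and 17.34 to 17.35 in wild-type arrays, with means of -0.27, -0.03 and 0.03 relative to wild-type on DNMTs-Tg replicates 1, 5 and 6. None was called. Cacna1c differed by 0.20 (adjusted p = 0.226) and Myl2 by -0.14 (adjusted p = 0.313). Of the 9 cardiomyocyte markers, 2 had a change above 0 and 7 below it. The groups did not overlap for 1 higher marker, Cacna1c, and 5 lower ones, namely Myl2, Pln (-0.17), Myh6 (-0.18), Atp2a2 (-0.08) and Mb (-0.09). Over all genes tested 17.3% were higher and 17.6% lower without overlap. Ryr2 (-0.37), Ckm (-0.003) and Myl3 (0.03) had overlapping groups. Among 7 smooth muscle markers, averaging -0.43, -0.71 and -0.40 on the DNMTs-Tg arrays, Synpo2 fell. Among 8 endothelial markers, averaging 0.06, 0.14 and 0.32, Vwf rose (1.39, adjusted p = 0.0177). The rest did not pass the threshold and differed in both directions. Egfl7 differed by 0.32, Cdh5 by 0.10, Pecam1 by 0.07 and Tie1 by 0.04, and Tek by -0.24, Emcn by -0.19 and Kdr by -0.11. The smooth muscle sum was 11.32 to 11.94 in DNMTs-Tg and 12.02 to 12.71 in wild-type arrays, without overlap. It includes Synpo2, which is also counted among the structural genes below, and its separation without Synpo2 was not tested. The other smooth muscle markers were not called. Smtn (-0.61) and Myh11 (-0.49) were lower without overlap, and Acta2 (-0.73), Cnn1 (-0.21), Tagln (0.02) and Lmod1 (0.002) had overlapping groups. The endothelial sum was 12.16 to 12.45 in DNMTs-Tg and 12.05 to 12.19 in wild-type arrays.

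Other genes of the sarcomere and of its regulation were counted in 3 lists. Of 36 further structural genes of the sarcomere, Z-disc and costamere 33 were measured, with a median change of 0.13, and 1 passed the threshold. That gene, Synpo2, is the smooth and striated muscle relative of Synpo2l and had log2 signals of 8.48, 8.55 and 9.29 in DNMTs-Tg hearts and 10.46, 10.34 and 10.26 in wild-type hearts. It fell by 1.58 ± 0.22, or 2.98-fold (adjusted p = 0.0127), while Synpo2l lay higher on all DNMTs-Tg arrays. Acta1, skeletal alpha-actin, is named after its values were seen. It had 14.29, 14.42 and 14.00 in DNMTs-Tg hearts and 12.60, 10.54 and 12.99 in wild-type hearts (2.19 ± 0.58, adjusted p = 0.0752), with wild-type replicate 4 far below the rest.

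Of 14 genes of titin-linked stress signalling and protein turnover, 13 were measured, with a median change of 0.31 and 11 above 0. One of them, the ankyrin-repeat protein Ankrd2 that binds titin's I-band, rose 3.32-fold, with log2 signals of 6.98, 6.93 and 6.15 in DNMTs-Tg hearts and 5.10, 4.75 and 5.03 in wild-type hearts (1.73 ± 0.24, adjusted p = 0.0127). Among 13 transcription regulators of sarcomere genes, the median was -0.10 and 5 were above 0. Nkx2-5, a homeobox factor of cardiomyocytes, fell by 0.59 ± 0.13, or 1.51-fold (adjusted p = 0.0471). Its signals were 8.10, 8.37 and 7.98 in DNMTs-Tg hearts and 8.70, 8.72 and 8.80 in wild-type hearts, without overlap. Without DNMTs-Tg replicate 5 or wild-type replicate 1 or 6, none of the 3 lists had a call in the limma fit (3 to 11 genes a list at an unadjusted p under 0.05), and without wild-type replicate 4 only 1 structural gene was called.

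The promoter windows of the sarcomere genes held binding elements of muscle transcription factors. RefSeq windows were found for 32 of the 38 genes, 44 windows in all, and both strands of the 250 bases were searched. The CArG box, the element of serum response factor, was in 8 of the 44 windows (18.2%), against 1.47% of the windows of all genes. The MEF2 site was in 6 (13.6%, against 2.92%), TATAAA in 4 (9.09%, against 12.4%) and the E-box CANNTG in 33 (75.0%, against 66.2%). In 1 window a TATAAA match overlapped a MEF2 site, and the other motifs did not overlap each other. The median number of CpG was 5 in the windows of these genes and 6 in those of all genes.

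The CArG boxes are printed because this element differed most in share from the windows of all genes. With a box that lies in overlapping windows counted once, they are 7 boxes in 6 genes, in capitals with 20 bases on either side, written 5' to 3' on the gene's strand (GRCm38.p6). Those of Actc1 (chr2:114052893-114052942), Fhl2 distal (chr1:43196828-43196877) and proximal (chr1:43163963-43164012), Ldb3 (chr14:34588687-34588736) and Nebl (chr2:17462989-17463038) are on the minus strand. Those of Myom1 (chr17:71019438-71019487) and Vcl (chr14:20929151-20929200) are on the plus strand.
Actc1: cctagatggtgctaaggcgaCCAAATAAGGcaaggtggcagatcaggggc
Fhl2, distal: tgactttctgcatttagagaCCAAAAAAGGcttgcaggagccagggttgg
Fhl2, proximal: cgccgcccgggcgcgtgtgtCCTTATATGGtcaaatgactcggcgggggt
Ldb3: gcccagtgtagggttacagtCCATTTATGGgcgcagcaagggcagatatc
Myom1: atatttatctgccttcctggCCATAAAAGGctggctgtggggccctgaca
Nebl: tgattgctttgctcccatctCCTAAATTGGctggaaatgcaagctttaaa
Vcl: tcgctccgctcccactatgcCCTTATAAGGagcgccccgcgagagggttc
Both genes that fell, Fhl2 and Nebl, are among these 6, and the 2 that rose are not. Nebl had 4 windows and Fhl2 had 2, against 1 each for Pdlim3 and Smyd1, so less sequence was searched for the genes that rose. The other 4 of the 6 genes with a box differed by -0.18 (Actc1), -0.11 (Ldb3), 0.11 (Myom1) and 0.28 (Vcl), none past the threshold. Srf and the 3 MEF2 genes of the transcription list, which encode factors that bind the CArG box and the MEF2 site, are named for that reason. Srf differed by -0.10 ± 0.12 (adjusted p = 0.648). Mef2a differed by -0.54 ± 0.14 (adjusted p = 0.0751), Mef2c by -0.30 ± 0.17 (adjusted p = 0.300) and Mef2d by 0.26 ± 0.11 (adjusted p = 0.199), with groups that overlapped for Mef2c alone. A motif match is a description of letters and not a bound site.

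Signal strength limits what small changes can show. The mean log2 signal of the 37 genes ran between 5.17 and 14.53, and 6 of them lay above 14, where only 27 of all genes tested did. The smallest gap of any of them to the brightest probe set of its array was 0.02, for Actc1 on wild-type replicate 6. Whether these spots were saturated is not given in the sources used here, so differences of the brightest genes, Actc1, Tnnt2, Tpm1, Tnnc1, Tnni3 and Csrp3, may be compressed.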

How the data were processed

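RNA from hearts of 3 DNMTs-Tg and 3 wild-type mice was measured on 1 array each. The deposited table holds a single value for each probe set on each array, which was read as a log2 signal because all values lay between 2.06 and 14.7, and the array medians of 5.28 to 5.33 show a common scale. How the authors corrected background and normalized, and with which software, is not given in the sources used here, and no detection calls were used. Per the labels' protocols, RNA was extracted with a fibrous tissue kit and labelled with biotin by in vitro transcription.

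Values were analysed as deposited. Symbols came from the platform annotation, updated by gene identifier to GRCm38.p6 (34741 of 34945 probe sets with 1 symbol matched; 932 had several and 9160 none, with 64 controls left out). A probe set was kept when at least 3 of the 6 arrays exceeded the 40th percentile of their own array (27377 kept), and a gene was represented by its brightest kept probe set. The 2-sided test was limma's (version 3.58.1, R 4.3.3; a linear model per gene with eBayes moderation and a variance trend), run over all 13634 genes with Benjamini-Hochberg adjustment and a threshold of 0.05. A second fit took all 45037 probe sets that are not controls. The steps were tested on simulated data. All 38 genes are named. Of each further list, up to 6 genes past the threshold by smallest p, or otherwise the 2 with the smallest p, are named. Further cardiomyocyte, atrial, skeletal muscle, smooth muscle, fibroblast and endothelial markers are named so that their lists are not read from those genes alone. Members, lists and tests were chosen with earlier results of these data known. The number of arrays limits the precision.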

Additional observations from a re-analysis of the deposited data

How the results depend on the processing

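The counts of genes past the threshold moved with the fit, and the cause was not tested. With array weights, whose iteration did not converge, 4822 genes, 22 of the 37 sarcomere genes and 29 of their 82 probe sets were called, with 16 further structural, 9 stress and turnover and 6 transcription genes. At a threshold of 0.10 the counts were 1655, 10, 14, 4, 5 and 2 in the same order, and at 0.01 they were 135 and otherwise 0. The mean of the kept probe sets, or no variance trend, left 2 of the 37. The 60th percentile filter gave 2 stress and turnover genes, and a common median or no filter gave 0 transcription genes (3 at an unadjusted p under 0.05). The median change of the sarcomere genes was 0.11 with quantile normalization (0.113) or the 60th percentile filter (0.112) and 0.132 without a filter.

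The label numbers 1 and 6 occur in both groups. The deviations of same-numbered arrays had correlations of -0.05 and -0.08. With 3 arrays a group, such values cannot show whether same-numbered mice were paired. With the label number as a replicate block, 1 gene was called in all, and 0 sarcomere genes, probe sets or genes of the 3 further lists (limma; 9 of the 37 at an unadjusted p under 0.05). With each array left out in turn, the calls ran between 123 and 1604 for all genes, 0 and 12 for the sarcomere genes, 0 and 19 for their probe sets, 0 and 7 for the further structural genes, 0 and 6 for stress and turnover and 0 and 1 for transcription. The median change ran between 0.124 and 0.165.

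Smyd1 missed the threshold under quantile normalization (adjusted p = 0.0674), no filter (0.0592), no variance trend (0.0634) and robust variance (0.0523), and Nebl without a variance trend (0.0539). With the 60th percentile filter Actn2 (0.0495) and Mybpc3 (0.0495) passed it too. The sign held in every fit for 29 of the 37 genes. It turned for Myot under quantile normalization (-0.0030), for Ldb3 (0.373), Tnnt2 (0.027) and Tpm2 minus Tpm1 (-0.016) with the mean of probe sets, for Ldb3 (0.050), Tmod1 (0.011) and Tpm3 (-0.063) with array weights, and for Tpm2 with the replicate block (0.0017). With arrays left out, values crossed 0 for Cmya5 (-0.59 to 0.013), Ldb3 (-0.20 to 0.052), Tmod1 (-0.17 to 0.064), Tpm2 (-0.22 to 0.024), Tnnt2 (-0.043 to 0.025), Tcap (-0.078 to 0.33), Myot (-0.47 to 0.50) and Myom2 minus Myom1 (-0.086 to 0.18).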
